A study of Drosophila melanogaster with 17 samples.

Results

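The cytochrome P450 genes of Drosophila melanogaster were followed across fat body, midgut and whole gut of old flies, Lam-RNAi flies and young flies. Members were all annotated loci whose symbol had the P450 form, that is Cyp followed by a family number, subfamily letters and a gene number, with Cyp4g1 left out. The rule used no measured value. It found 81 of 14095 loci: 35 of the CYP3 clan, 31 of the CYP4 clan, 11 of the mitochondrial clan and 4 of the CYP2 clan, where a clan is a deep branch of the P450 family tree. The 17 libraries were poly-A selected RNA in 8 groups. Fat body held 3 libraries of old flies (50 days), 2 of Lam-RNAi flies (5 days) and 2 of untreated young flies (5 days). Midgut held 2 old (50 days), 2 Lam-RNAi (5 days) and 2 young (5 days) libraries, and whole gut 2 old (40 days) and 2 young (5 days) libraries. The series design calls the young libraries wild type. Strain, sex, mating state, diet, number of animals per library, the driver of the RNAi and the tissue in which it acted are not given in the labels, and no library of a driver or hairpin line without knockdown is among the samples, so the effect of knockdown and that of genetic background cannot be told apart. The study's title concerns lamin-B, the B-type lamin of the nuclear envelope, which Lam encodes.

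P450 enzymes bind a heme iron and use an electron partner to put an oxygen atom into a fat-soluble substrate. In insects most CYP3 clan and many CYP4 clan enzymes sit in the endoplasmic reticulum and draw electrons from the reductase Cpr, and several of them break down plant toxins, drugs and insecticides in gut, fat body and Malpighian tubule. Mitochondrial clan enzymes draw electrons from a ferredoxin instead. The CYP2 and mitochondrial clans also hold enzymes that make or inactivate the moulting hormone ecdysone, whose synthesis genes carry Halloween names rather than Cyp symbols.

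Library totals were 31637135 to 78289614 counts, so that the limit which a count of 0 allows, 3 counts, equalled 0.0383 to 0.0948 CPM (counts scaled to library totals). These limits and the intervals of single counts cover counting error only. Lam itself had 41.2, 50.8 and 42.0 CPM in old fat body, 15.5 and 16.1 CPM in Lam-RNAi fat body and 38.4 and 39.0 CPM in young fat body. In midgut it had 32.9 and 31.4 CPM in old, 32.0 and 30.4 CPM in Lam-RNAi and 28.9 and 32.1 CPM in young libraries, so the target was lower in the fat body but not in the midgut of Lam-RNAi flies. In old fat body, library 3 lay between library 1 and library 2 for 60 of 75 tested members. Of the 75, 14 were at least 2-fold higher in library 1 than in library 2, and 9 were at least 2-fold lower. The summed CPM of all members was 6792, 4851 and 5810 in libraries 1, 2 and 3, with library 3 near the middle. Cyp6a8 (235, 42.7 and 138 CPM) and Cyp6a20 (163, 27.7 and 96.1 CPM) had the same order. Whether library 3 is independent of libraries 1 and 2 was not tested. SDs, SEs and p-values of old fat body treat it as independent. The summed CPM of 9 midgut markers was 357, 148 and 239 in old libraries 1, 2 and 3, against 255 and 235 in Lam-RNAi and 41.2 and 39.2 in young fat body. The summed CPM of 6 oenocyte markers was 27006, 44472 and 36867 in old, 42916 and 45557 in Lam-RNAi and 105521 and 106938 in young fat body, none of them at 0. Most of that sum was Cyp4g1, at 22501, 35009 and 29384 CPM in old, 32201 and 35406 CPM in Lam-RNAi and 89554 and 90668 CPM in young fat body. Of the 6, 4 fell in old fat body, while 3 fell and 1 rose in Lam-RNAi fat body, the rise being in CG18031 (listed as FarO, 0.86 on the log2 scale), and the others, desat1 in both comparisons among them, did not pass the test. The summed CPM of 8 muscle markers was 3023, 4995 and 4069.5 in old, 4844 and 4549 in Lam-RNAi and 8407 and 8410.4 in young fat body, and that of 9 fat body markers was 64932, 73329 and 73486 in old, 151524 and 130774 in Lam-RNAi and 47843 and 47709 in young fat body. The part of these shifts in the fat body results was not tested. The summed CPM of 9 fat body markers in midgut was 1321 and 1426 in old, 1145 and 1148 in Lam-RNAi and 5785 and 7167 in young libraries. Whole gut carried 8 Malpighian tubule markers at a summed 1770.4 and 1843 CPM in old and 2131 and 2156 CPM in young libraries, against 8.79 to 39.6 CPM in midgut. In such bulk libraries fewer cells of a type and less RNA per cell cannot be told apart.

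The 81 members, which leave out Cyp4g1, had similar sums in the 3 fat body groups and higher sums in gut. Both Lam-RNAi sums (5508 and 5942 CPM) were above both young fat body sums (5462 and 5411 CPM). These statements do not hold for P450 transcripts with Cyp4g1 included. Cyp4g1 alone was above the sum of the members in every fat body library and was lower in old and Lam-RNAi than in young fat body. It had 2076 and 2717 CPM in young midgut, far below its 89554 and 90668 CPM in young fat body. The 81 members together held 5818 ± 970.2 CPM in old fat body (SD, n = 3), 5725 ± 306 CPM in Lam-RNAi fat body and 5437 ± 36.5 CPM in young fat body (SD, n = 2 each). In midgut they held 7989 ± 430.5 CPM in old, 9764 ± 181 CPM in Lam-RNAi and 9023 ± 49.3 CPM in young libraries, and in whole gut 10234 ± 178 CPM in old and 7702 ± 267 CPM in young libraries (SD, n = 2 each). Counts were found for 80 members in at least 1 library. The exception was a copy of Cyp12d1-p on an unplaced scaffold, and the reads of Cyp12d1-p and Cyp12d1-d, which are near-identical neighbours, could have been split between them. A test was possible for 71 members in all 10 comparisons and for another 5 in some of them. The 5 that passed no filter on low counts were Cyp313a5, Cyp313a2, Cyp308a1 and 2 of the 3 copies of Cyp12d1-p, the unplaced one included. Of the members, 16 lie wholly inside another annotated locus and 15 overlap one in part. The strand setting of the counting is not given in the sources used here, so values of these 31 are uncertain where the other gene is also transcribed.

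**Figure D1:**
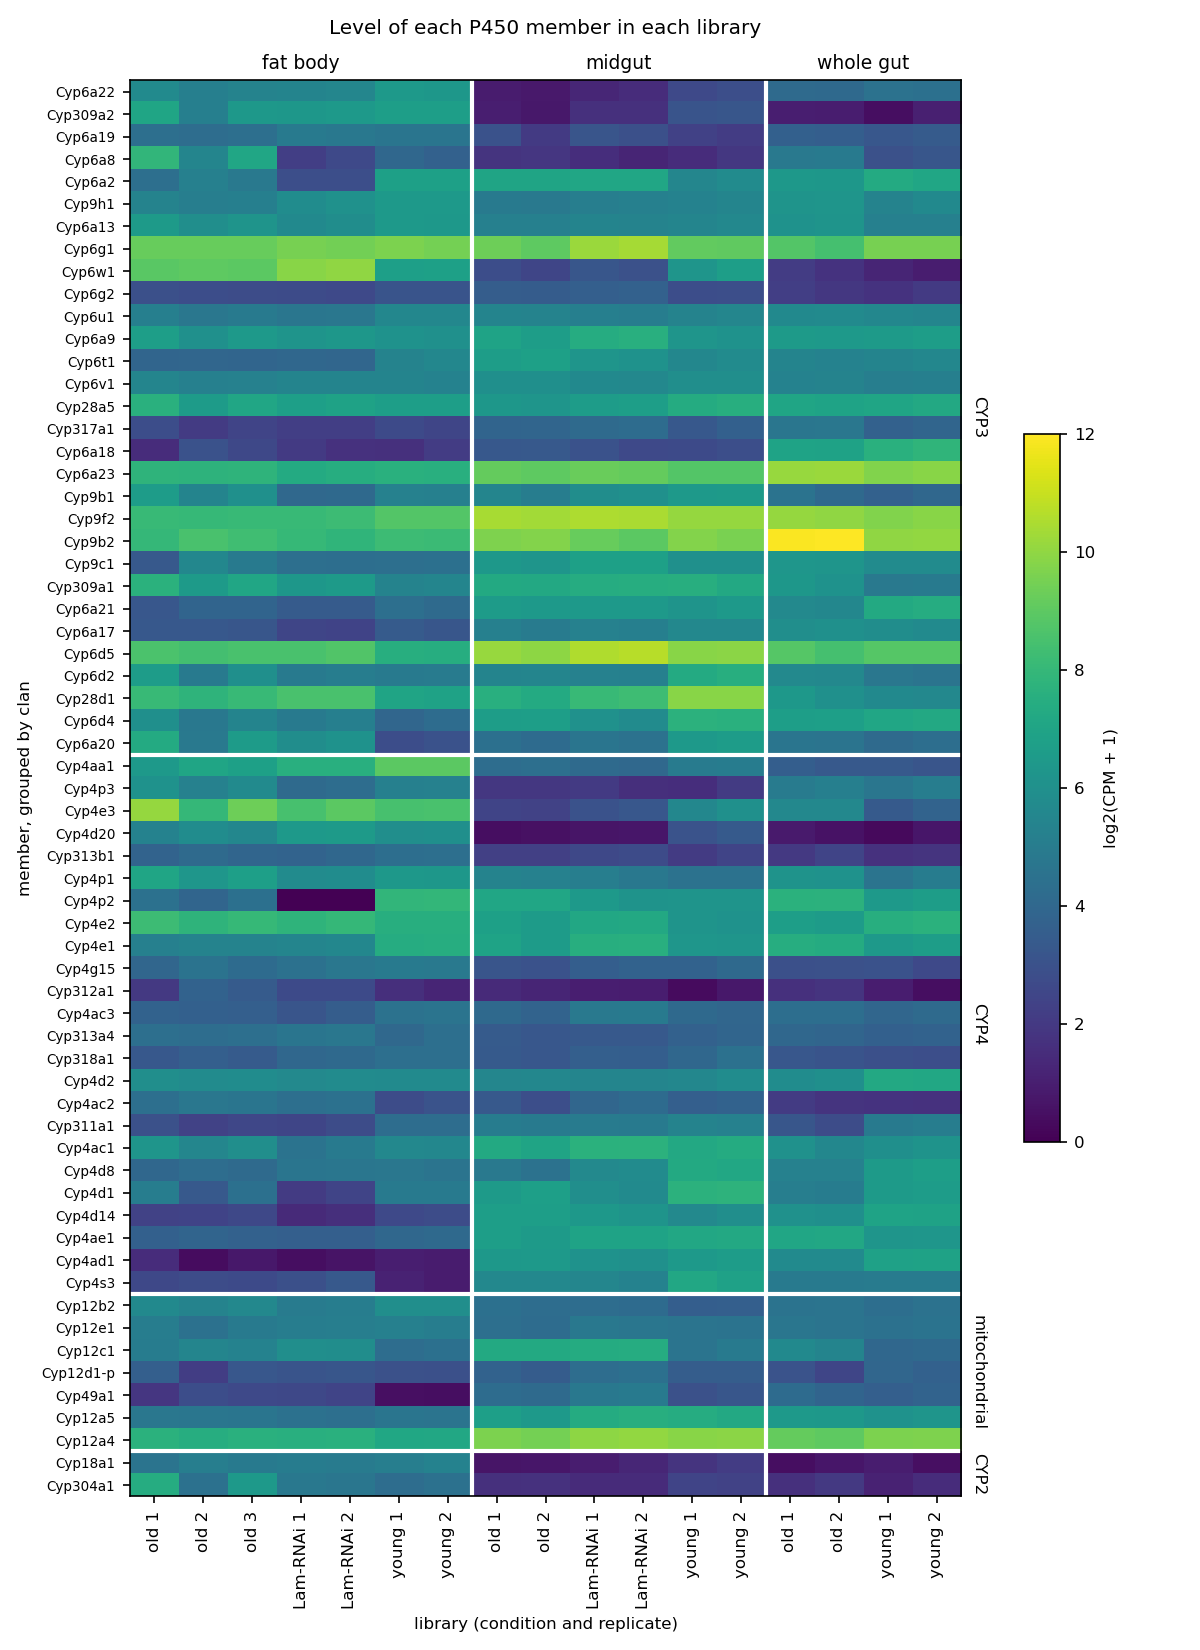
Level of the 63 members with at least 10 CPM in any library, as log2(CPM + 1), with 1 column per library and 1 row per member, rows grouped by clan and ordered by the young fat body to young midgut ratio. Cyp4p2 is near 0 in both Lam-RNAi fat body libraries, and Cyp9b2 reaches its highest level in both old whole gut libraries.

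Cyp9f2 and Cyp9b2 were among the 5 highest members of every young tissue, and the other leading genes varied. Levels between genes were compared as RPKM, that is CPM per kilobase of coding sequence. In young fat body the highest member was Cyp6g1, an enzyme whose overexpression gives resistance to DDT and neonicotinoids, at 479.6 ± 24.0 RPKM (SD, n = 2). It was followed by Cyp4aa1 at 326 ± 1.64, Cyp9f2 at 288 ± 2.39, Cyp4e3 at 235 ± 3.91 and Cyp9b2 at 196 ± 4.80 RPKM. Each of these 5 neighbours in the order differed by more than the sum of their SDs. In young midgut the order was Cyp9f2 at 714 ± 3.20, the nicotine-metabolizing Cyp28d1 at 617 ± 0.105, the caffeine-linked Cyp6d5 at 613 ± 14.5, Cyp12a4, a mitochondrial enzyme linked to lufenuron resistance, at 590.1 ± 13.1 and Cyp9b2 at 541 ± 40.4 RPKM. Cyp28d1, Cyp6d5 and Cyp12a4 each differed from the next gene in the order by less than the sum of the SDs. In young whole gut Cyp9b2 led at 690.0 ± 3.14 RPKM, followed by Cyp6a23 at 589.8 ± 29.3, Cyp9f2 at 567 ± 37.9, Cyp12a4 at 501 ± 18.6 and Cyp6g1 at 477 ± 3.18 RPKM. Cyp6a23 and Cyp9f2 differed by less than the sum of their SDs, and Cyp6a23 has a close copy, Cyp6a17, beside it, so its level is uncertain.

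Most tested members differed between young fat body and young midgut, a share near that of all genes. Of 76 tested members, 20 were higher and 38 lower in young fat body than in young midgut (edgeR quasi-likelihood test, Benjamini-Hochberg adjusted p below 0.05 over all genes of the fit), which is 76.3% called. Of all genes 69.3% were called, 34.3% higher and 35.0% lower. With libraries scaled to total counts alone the split was 26 higher and 31 lower. That scaling moved the median of all genes by 0.46 on the log2 scale. The median log2 difference was -0.43 over the members and 0.02 over all genes tested. By clan, 7 CYP3 members were higher and 20 lower, 10 CYP4 members were higher and 11 lower, and 1 mitochondrial member was higher and 6 lower.

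Among called members with a mean of at least 5 CPM in 1 group, the 8 largest differences towards fat body were in Cyp4aa1, Cyp6a22, Cyp4p3, Cyp309a2, Cyp18a1, Cyp4d20, Cyp4e3 and Cyp6a19. Cyp4aa1 had 501 and 497 CPM in young fat body and 31.2 and 32.0 CPM in young midgut, a difference of 3.52 (SE 0.19, adjusted p = 1.87e-09) on the log2 scale. Cyp18a1, which inactivates ecdysone by oxidation, had 34.3 and 39.4 CPM in young fat body and 2.46 and 3.45 CPM in young midgut (log2 fold change 3.19, SE 0.28, adjusted p = 3.64e-07). The groups did not overlap for either gene. The 8 largest differences towards midgut, chosen in the same way, were in Cyp4s3, Cyp4ad1, Cyp49a1, Cyp6a20, Cyp6d4, Cyp4d14, Cyp4ae1 and Cyp28d1. Cyp4s3 had 1.23 and 0.887 CPM in young fat body and 144 and 116 CPM in young midgut (log2 fold change -7.44, SE 0.23, adjusted p = 8.73e-12), and Cyp4ad1 had 1.02 and 0.887 CPM in young fat body and 85.9 and 98.4 CPM in young midgut (log2 fold change -7.06, SE 0.41, adjusted p = 1.01e-08). Both genes were near the low end of detection in fat body. Cyp6g1, the leading member of fat body per length, did not pass the test between these tissues, with a log2 difference of 0.03 (SE 0.12). Young midgut carried the fat body transcripts given above, whose part in these values was not tested.

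**Figure D2:**
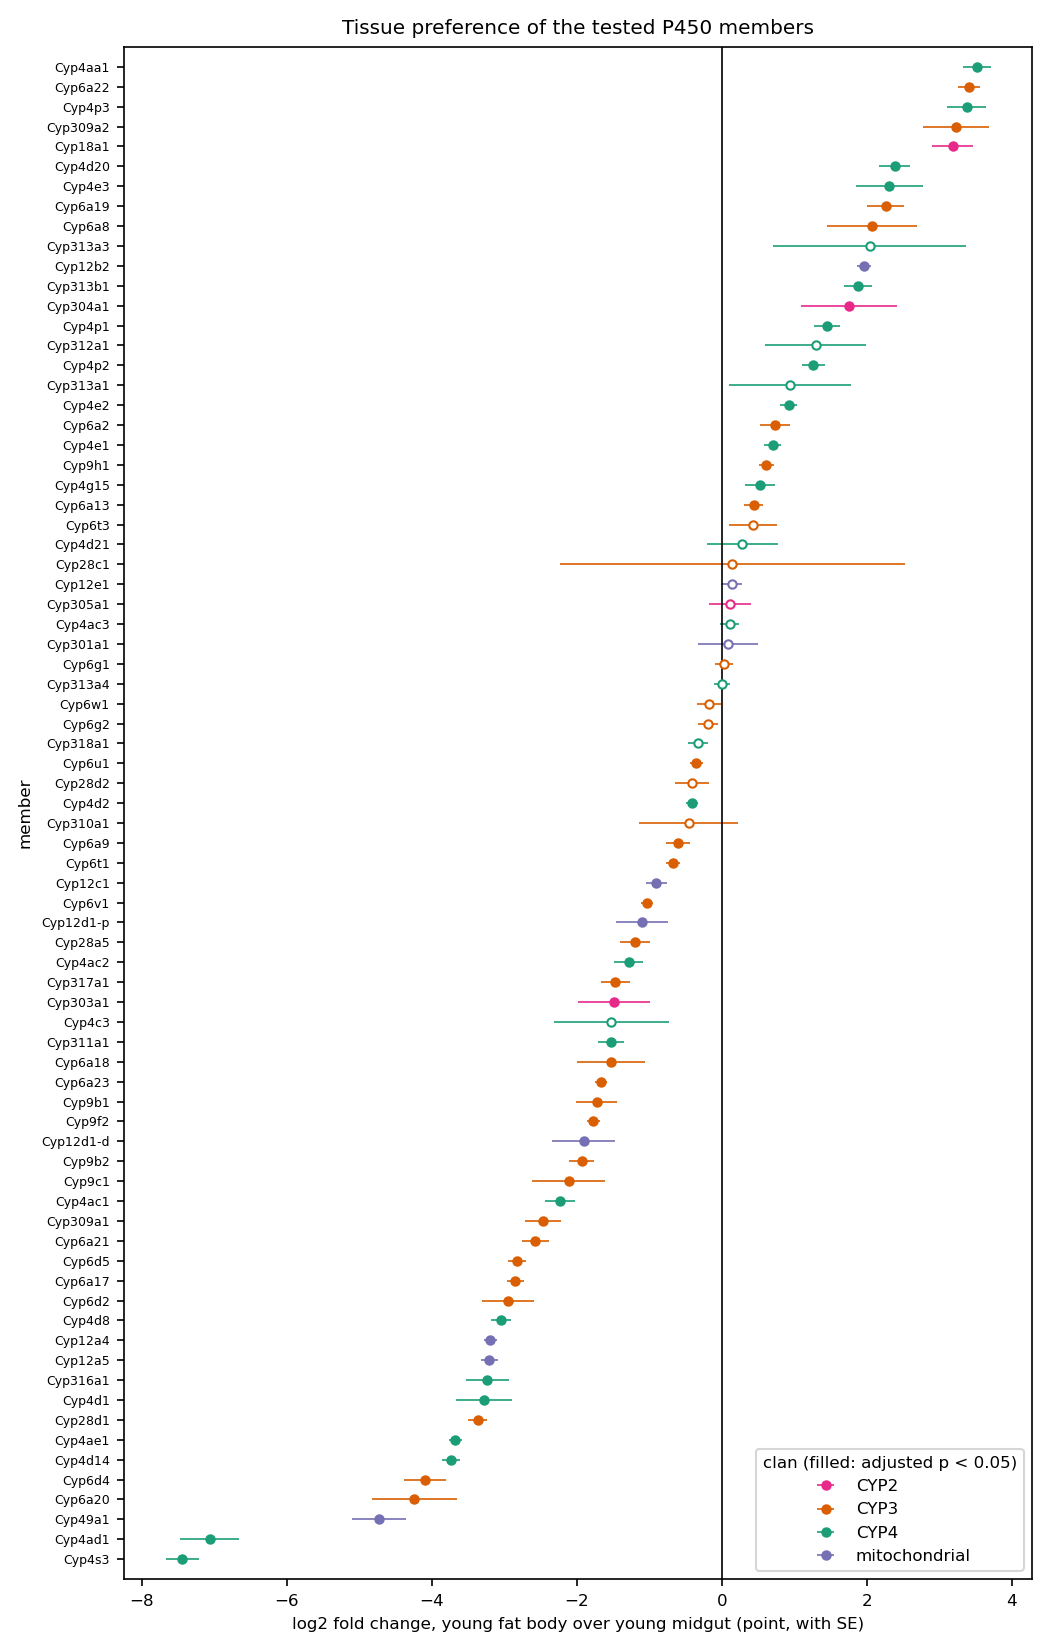
Log2 fold change of each of the 76 tested members between young fat body and young midgut, with its SE, coloured by clan and filled where the adjusted p was below 0.05. The fold changes run between 3.52 for Cyp4aa1 and -7.44 for Cyp4s3, where Cyp4s3 and Cyp4ad1 stand apart from the rest at the midgut end.

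Cyp6a18 was mainly a transcript of the whole gut preparation. It had 123 and 119.9 CPM in old whole gut and 198 and 228 CPM in young whole gut, against 8.74 and 9.16 CPM in old midgut, 7.06 and 5.37 CPM in Lam-RNAi midgut and 5.47 and 6.27 CPM in young midgut. It had 1.84, 7.20 and 5.10 CPM in old fat body, 3.13 and 2.29 CPM in Lam-RNAi fat body and 2.13 and 3.32 CPM in young fat body. Every whole gut library was thus above every midgut and fat body library for this gene, as the tubule markers were. The part of tubule or hindgut RNA in this was not tested.

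In fat body, ageing raised and lowered about as many P450 genes. Of 75 tested members 16 rose and 20 fell in old against young fat body, which is 48% called. Of all genes 38.1% were called, 19.1% higher and 19.0% lower. In Lam-RNAi against young fat body 18 rose and 15 fell, which is 44% called against 35.7% of all genes, 18.5% higher and 17.1% lower. With scaling to total counts the Lam-RNAi split was 14 higher and 23 lower, the median of all genes moving by -0.17. The median log2 difference of the members was 0.00 in old and -0.04 in Lam-RNAi fat body, against 0.02 and -0.01 over all genes. Both comparisons use the same 2 young libraries, so their values are given side by side and are not independent. When either young library was left out, the count of members called in old fat body fell to 21 (without young library 1) or 23 (without young library 2), and in Lam-RNAi fat body to 21 in either case. Without Lam-RNAi library 1 or library 2 the count in Lam-RNAi fat body was 20 or 19.

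Among the genes linked to toxin and insecticide breakdown, Cyp6w1, Cyp28d1, Cyp6d5, Cyp12a4 and Cyp6d4 rose and Cyp6a2 fell in both conditions. Cyp6w1, overexpressed in DDT-resistant strains (chromosome 2R, 2061200 to 2062947, plus strand), had 491, 519 and 496 CPM in old, 923 and 1012 CPM in Lam-RNAi and 107 and 112 CPM in young fat body. The 3 groups did not overlap, and the Lam-RNAi libraries were the highest. Its log2 fold change against young fat body was 2.11 (SE 0.10, adjusted p = 3.79e-05) in old and 3.31 (SE 0.10, adjusted p = 1.58e-05) in Lam-RNAi flies. Cyp28d1 (chromosome 2L, 5210460 to 5212445, plus strand) had 272, 225 and 274 CPM in old, 370.4 and 374 CPM in Lam-RNAi and 128 and 119.5 CPM in young fat body. It was in the same order, with log2 fold changes of 0.97 (SE 0.10, adjusted p = 0.00066) in old and 1.76 (SE 0.11, adjusted p = 0.000106) in Lam-RNAi flies. Cyp6d5 had 393, 340.1 and 375 CPM in old, 372 and 429 CPM in Lam-RNAi and 182 and 179 CPM in young fat body, with log2 fold changes of 0.94 (SE 0.09, adjusted p = 0.000557) and 1.32 (SE 0.10, adjusted p = 0.000219) in old and Lam-RNAi flies. Both conditions were above the young libraries and overlapped each other. Cyp6d5 lies inside rdx on the opposite strand, and rdx averaged 99.9 CPM in old, 124 CPM in Lam-RNAi and 100.1 CPM in young fat body.

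Cyp6a2, another gene of insecticide-resistant strains (chromosome 2R, 2667220 to 2668960, minus strand), had 19.8, 36.4 and 27.6 CPM in old, 6.41 and 6.36 CPM in Lam-RNAi and 112 and 113 CPM in young fat body. Young libraries were the highest and Lam-RNAi libraries the lowest, with no overlap, at log2 fold changes of -2.09 (SE 0.24, adjusted p = 0.00102) in old and -3.97 (SE 0.30, adjusted p = 0.000219) in Lam-RNAi flies. Cyp6a2 lies inside Epac on the same strand, which averaged 6.31 CPM in old, 2.51 CPM in Lam-RNAi and 3.86 CPM in young fat body. The caffeine-inducible Cyp6a8 (chromosome 2R, 10774675 to 10776514, minus strand) had 235, 42.7 and 138 CPM in old, 3.64 and 5.36 CPM in Lam-RNAi and 14.8 and 12.3 CPM in young fat body. Every old library was above both other groups, and old library 1 was the highest by far (log2 fold change 3.25, SE 0.68, adjusted p = 0.0113 in old against young). That call was lost when either young library was left out, and with old library 2 as the single old sample its log2 fold change was 1.62. In Lam-RNAi against young fat body Cyp6a8 did not pass the test (log2 fold change -1.41, SE 0.69, adjusted p = 0.154). The toxin list held Cyp6g1, Cyp6g2, Cyp6a2, Cyp6a8, Cyp6w1, Cyp6d4, Cyp6d5, Cyp12a4, Cyp12d1-d, Cyp28d1 and Cyp28d2, and Cyp12d1-p, also listed, was not counted because its symbol matched several loci. Cyp28d2 was low in every library, at 1.21 to 3.51 CPM, and did not pass the test in fat body. Of these 11 genes, 6 rose and 2 fell in old fat body, with a median log2 difference of 0.64 against 0.02 over all genes, and 5 rose and 1 fell in Lam-RNAi fat body, with a median of 0.63 against -0.01. Beside Cyp6a2, the gene that fell in old fat body was Cyp6g1 (log2 fold change -0.43, adjusted p = 0.00697). In Lam-RNAi fat body Cyp6g1 did not pass the test (log2 fold change 0.11, adjusted p = 0.384). Of all genes 19.1% rose and 19.0% fell in old fat body, and 18.5% rose and 17.1% fell in Lam-RNAi fat body.

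**Figure D3:**
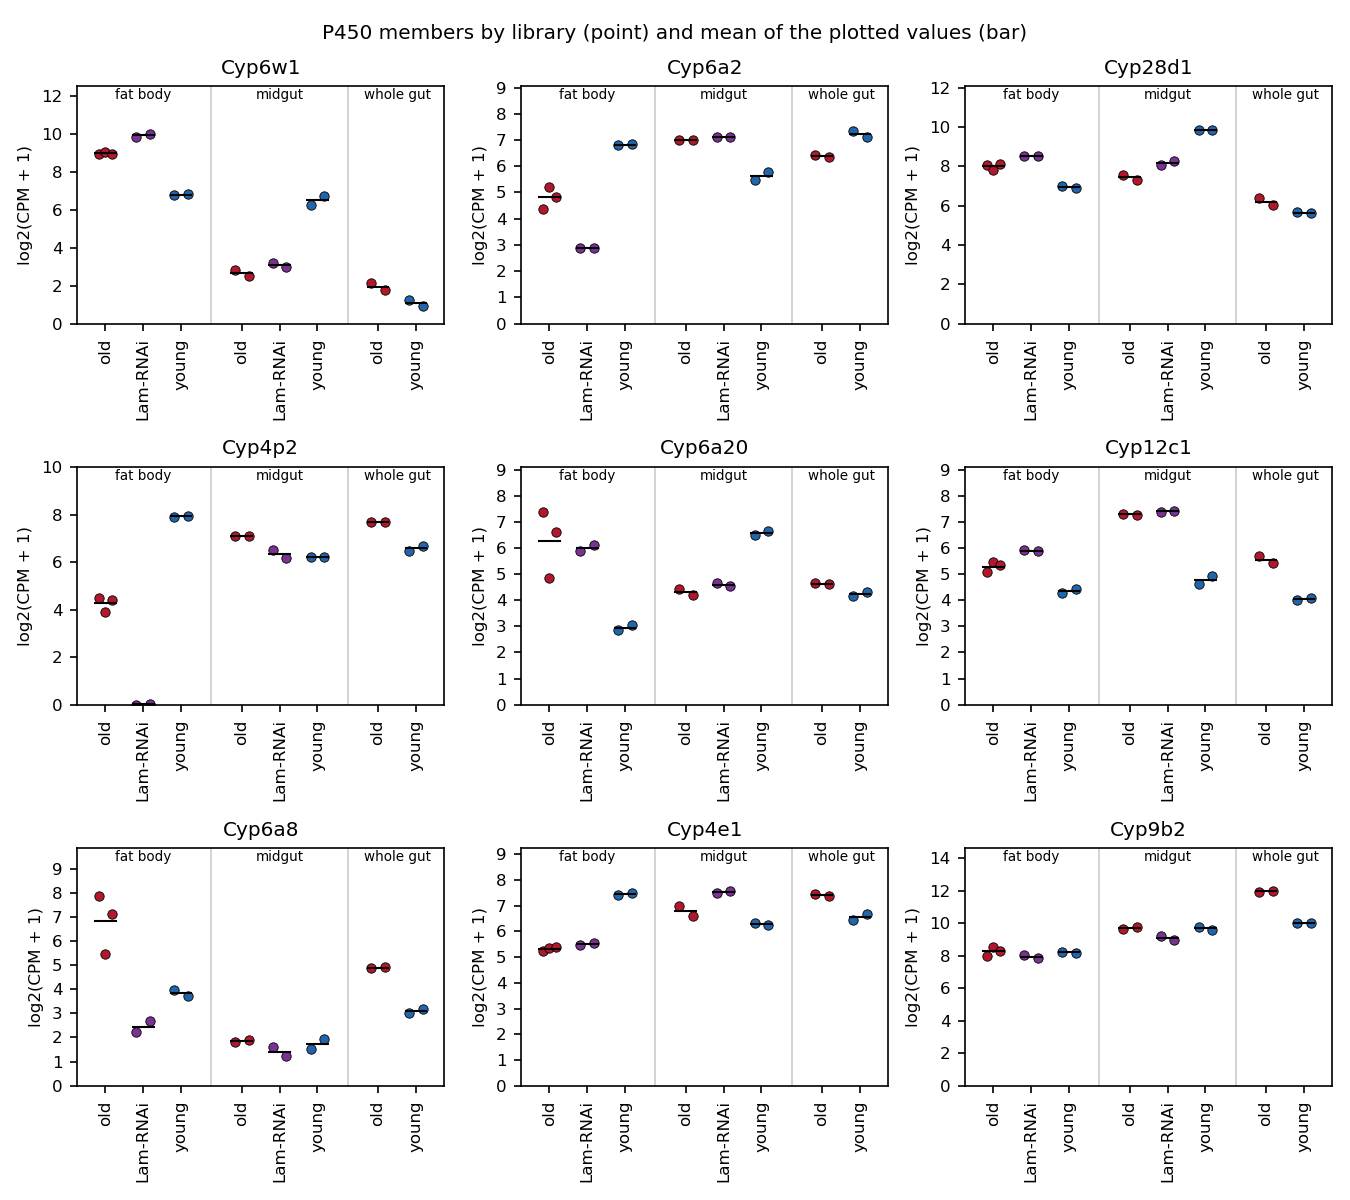
Levels of 9 members in every library as log2(CPM + 1), with a point per library and a bar at the mean of the plotted values, for old, Lam-RNAi and young fat body and midgut and for old and young whole gut. Cyp6w1 is highest in Lam-RNAi fat body, Cyp4p2 lies at 0 in Lam-RNAi fat body, and the old fat body points of Cyp6a20 and Cyp6a8 are widely spread.

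Cyp4p2, a CYP4 clan gene (chromosome 2R, 5125034 to 5127338, plus strand), was all but undetected in Lam-RNAi fat body. It had 21.6, 13.9 and 20.3 CPM in old, 0 and 0.0146 CPM in Lam-RNAi and 241 and 245 CPM in young fat body. The Lam-RNAi libraries together held 1 read of Cyp4p2, against 21847 reads in the young libraries. Scaled to library totals the young level was 28010 times the Lam-RNAi level, with an exact 95% interval of 5027 to 1.11e+06 that covers counting error only. In old fat body it fell, with a log2 fold change of -3.80 (SE 0.19, adjusted p = 5.07e-05). Its neighbours Cyp4p1 and Cyp4p3, separated by gaps of 208 and 202 bases, lie with it within the gene hig on the opposite strand, and both were read in Lam-RNAi fat body. The host hig averaged 0.832 CPM in old, 0.362 CPM in Lam-RNAi and 6.86 CPM in young fat body and fell there too (log2 fold change -3.12, adjusted p = 0.00154 in old and -4.05, adjusted p = 0.00137 in Lam-RNAi flies), while in midgut it rose (2.10 and 1.75). At these levels hig was below Cyp4p2 in young fat body, and without the strand setting reads of the 2 genes cannot be told apart. Cyp4p1 had 132, 78.4 and 108 CPM in old, 53.9 and 56.2 CPM in Lam-RNAi and 83.7 and 81.8 CPM in young fat body, and Cyp4p3 had 67.8, 37.5 and 52.3 CPM in old, 17.0 and 18.4 CPM in Lam-RNAi and 36.9 and 37.4 CPM in young fat body. Cyp4p3 fell there (log2 fold change -0.90, SE 0.23, adjusted p = 0.0245), and Cyp4p1 did not pass the test. Cyp4p2 was also read in the midgut of Lam-RNAi flies, at 90.0 and 71.9 CPM, beside 136 and 137 CPM in old and 73.6 and 73.5 CPM in young midgut.

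Other CYP4 genes of the fat body fell as well. Cyp4e1 (chromosome 2R, 4334973 to 4337250, plus strand) had 36.5, 40.3 and 40.9 CPM in old, 42.9 and 45.6 CPM in Lam-RNAi and 169 and 177 CPM in young fat body. Both conditions were far below the young libraries, at log2 fold changes of -2.23 (SE 0.09, adjusted p = 2.79e-05) in old and -1.80 (SE 0.10, adjusted p = 7.31e-05) in Lam-RNAi flies. Cyp4aa1 (chromosome 2R, 11830385 to 11834772, plus strand), the most fat body preferring member, had 84.9, 133 and 111 CPM in old, 186 and 191 CPM in Lam-RNAi and 501 and 497 CPM in young fat body. Its log2 fold changes were -2.27 (SE 0.19, adjusted p = 0.00028) in old and -1.23 (SE 0.21, adjusted p = 0.00528) in Lam-RNAi flies. The oenocyte marker sum given above was lower in the same libraries as Cyp4aa1, and the part of these cells in the result was not tested. Further called log2 fold changes, some in the CYP3 clan, were -1.88 in old and -1.64 in Lam-RNAi flies for Cyp311a1, -1.69 and -1.38 for Cyp6t1, and, in old flies, -1.32 for Cyp9h1 and -1.08 for Cyp6a22. Cyp4d1 fell in Lam-RNAi flies (log2 fold change -2.77, SE 0.52, adjusted p = 0.00767), a call lost when either Lam-RNAi library was left out. Cyp4d14 also fell in Lam-RNAi flies (-1.38 on the log2 scale).

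Several genes outside the toxin list, low in young fat body, rose in both conditions. Cyp6a20, which modulates aggression of males in the laboratory, had 163, 27.7 and 96.1 CPM in old, 57.4 and 68.9 CPM in Lam-RNAi and 6.23 and 7.24 CPM in young fat body. Every old and Lam-RNAi library was above both young libraries, at log2 fold changes of 3.72 (SE 0.72, adjusted p = 0.008) in old and 3.40 (SE 0.73, adjusted p = 0.0128) in Lam-RNAi flies. Both calls were lost when either young library was left out, and the Lam-RNAi call also when either Lam-RNAi library was. Cyp4ac2 had 19.6, 25.7 and 24.2 CPM in old, 19.6 and 21.1 CPM in Lam-RNAi and 5.84 and 7.41 CPM in young fat body, again without overlap, at 1.72 in old and 1.79 in Lam-RNAi flies. Cyp4s3 rose by 2.30 in old and 3.10 in Lam-RNAi flies, and Cyp49a1 by 3.48 and 3.78. Cyp49a1 had 2.72, 6.04 and 5.23 CPM in old and 5.17 and 4.47 CPM in Lam-RNAi fat body. In young fat body it had 0.419 and 0.372 CPM, from 14 and 21 reads. It lies inside G-oalpha47A on the opposite strand, which averaged 101.1 CPM in old, 52.3 CPM in Lam-RNAi and 52.9 CPM in young fat body. Cyp312a1 rose by 2.26 in old flies, a call lost when either young library or old library 3 was left out. Cyp4s3 and Cyp49a1 were strongly midgut preferring in young flies, and the midgut marker sum given above was higher in the same fat body libraries, with no marker at 0. Other strongly midgut preferring members went both ways. Cyp6a20, Cyp6d4 and Cyp28d1 were higher in every old and Lam-RNAi library than in both young fat body libraries. Cyp4ae1 and Cyp4d14 were lower in all of them. Cyp4ad1 had 1.86, 0.318 and 0.707 CPM in old, 0.364 and 0.570 CPM in Lam-RNAi and 1.02 and 0.887 CPM in young fat body. The part of midgut RNA in these results was not tested.

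Cyp309a1, also midgut preferring, had 199, 92.9 and 137 CPM in old, 80.4 and 93.4 CPM in Lam-RNAi and 40.7 and 43.6 CPM in young fat body, with a log2 fold change of 1.67 (SE 0.29, adjusted p = 0.00526) in old flies that was lost without young library 1. Cyp12c1, a mitochondrial clan gene (chromosome 3L, 18677624 to 18679419, minus strand), rose by 0.90 (SE 0.15, adjusted p = 0.00448) in old and 1.77 (SE 0.16, adjusted p = 0.000474) in Lam-RNAi fat body. Cyp4d21, known as sxe1 for its male-biased expression in fat cells of the head, had 2.77, 4.0 and 4.22 CPM in old, 8.34 and 8.17 CPM in Lam-RNAi and 0.599 and 0.337 CPM in young fat body, at 2.92 in old and 4.35 in Lam-RNAi flies. The summed CPM of 6 male markers was 8.30, 7.94 and 9.19 in old, 10.5 and 12.4 in Lam-RNAi and 1.74 and 1.24 in young fat body, in which 1 to 4 of the 6 were at 0. Nearly all of it was roX1, an RNA of male dosage compensation, with log2 fold changes of 2.52 (SE 0.17, adjusted p = 0.000146) in old and 3.26 (SE 0.18, adjusted p = 7.37e-05) in Lam-RNAi flies, while the accessory gland and testis genes Acp26Aa, Acp36DE, Mst87F and dj were at or near 0 in all 3 groups. Their part in the Cyp4d21 difference was not tested, and the sex of the flies is not labelled. Cyp304a1 had 170.2, 21.4 and 88.6 CPM in old, 26.8 and 25.3 CPM in Lam-RNAi and 18.4 and 21.1 CPM in young fat body. It was high in old libraries 1 and 3 only and did not pass the test in old fat body. The hormone and cuticle list, Cyp18a1, Cyp6g2, Cyp6t3, Cyp301a1, Cyp303a1 and Cyp310a1, had 0 of 6 genes called by edgeR in either fat body comparison. Of all genes 38.1% were called in old and 35.7% in Lam-RNAi fat body. At an unadjusted p below 0.05 the list had 2 in old and 0 in Lam-RNAi fat body, and DESeq2 called 0 in both. The median log2 difference of this list was -0.24 in old and -0.15 in Lam-RNAi fat body.

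Old and Lam-RNAi fat body differed directly from each other at 27 of 75 tested members. In this comparison 9 were higher and 18 lower in old flies, 36% called against 14.7% of all genes, 5.65% higher and 9.09% lower. With scaling to total counts the split was 14 higher and 12 lower, the median of all genes moving by 0.26. The calls rest on few libraries: 4 members were called when either Lam-RNAi library was left out, 8 without old library 3, and 47 with old library 2 as the single old sample. Cyp4p2 (adjusted p = 0.000705), Cyp6a8 (4.66, SE 0.74, adjusted p = 0.0105), Cyp4d1 (2.14, SE 0.49, adjusted p = 0.0334), Cyp6a2 (1.88, SE 0.27, adjusted p = 0.00723), Cyp9b1 (1.83, SE 0.33, adjusted p = 0.0154) and Cyp4p3 (1.31, SE 0.22, adjusted p = 0.0124) were higher in old than in Lam-RNAi fat body on the log2 scale. Cyp9b1 had 98.8, 41.5 and 63.4 CPM in old and 15.8 and 16.0 CPM in Lam-RNAi fat body, beside 37.6 and 36.8 CPM in young fat body, and the old libraries did not overlap the Lam-RNAi libraries. Lower in old flies were Cyp4d21 (-1.43), Cyp6w1 (-1.20, SE 0.09, adjusted p = 0.000834), Cyp4d20 (-1.17), Cyp318a1 (-0.88), Cyp4aa1 (-1.04) and Cyp9h1 (-1.0, SE 0.10, adjusted p = 0.00227). Of these named members Cyp4p2, Cyp6w1 and Cyp9h1 kept their call when any 1 library was left out, and the calls of Cyp6a8, Cyp6a2, Cyp4d20, Cyp4d1, Cyp9b1, Cyp4p3, Cyp4d21, Cyp318a1 and Cyp4aa1 were lost when either Lam-RNAi library was left out.

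In midgut the P450 genes that fell outnumbered those that rose in both conditions. Old and Lam-RNAi midgut were compared with the same 2 young libraries, so these comparisons are not independent. Of 72 tested members 20 rose and 35 fell in old against young midgut, 76.4% called against 53.7% of all genes, 25.0% higher and 28.7% lower. In Lam-RNAi against young midgut 24 rose and 35 fell, 81.9% called against 55.4% of all genes, 25.5% higher and 29.9% lower. The median log2 difference of the members was -0.19 in old and -0.14 in Lam-RNAi midgut, against 0.01 and -0.01 over all genes. Scaling to total counts moved the median of all genes by 0.15 in Lam-RNAi midgut and gave 27 higher and 31 lower. In the CYP4 clan 6 of 26 members rose and 16 fell in old midgut, and 6 rose and 15 fell in Lam-RNAi midgut. In the mitochondrial clan 4 of 9 rose and 3 fell in old midgut, while 6 rose in Lam-RNAi midgut and the other 3 did not pass the test.

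Among members with a mean of at least 5 CPM, the largest falls in both conditions were in Cyp4d20 (-4.31 in old and -3.90 in Lam-RNAi midgut on the log2 scale), Cyp6w1 (-4.15 and -3.71) and Cyp4e3 (-3.70 and -2.94), with Cyp309a2 (-3.39 and -2.04) and Cyp6a22 (-2.84 and -1.94) among the next. Cyp4d20, Cyp4e3, Cyp309a2 and Cyp6a22 were higher in young fat body than in young midgut, while Cyp6w1 did not pass that test (log2 fold change -0.18, SE 0.16, adjusted p = 0.349). Cyp6w1 had 6.21 and 4.70 CPM in old, 8.33 and 6.97 CPM in Lam-RNAi and 76.5 and 105 CPM in young midgut, beside 107 and 112 CPM in young fat body. The old and Lam-RNAi midgut libraries were far below the young ones. The fat body marker sum given above was lower in the same libraries, 8 of its 9 markers falling in each condition. The summed CPM of 8 muscle markers was 1463 and 1311 in old, 2002 and 2151 in Lam-RNAi and 3945 and 4243 in young midgut, 7 of them falling in each condition. Cyp4g1 had 43.0 and 46.5 CPM in old, 23.5 and 18.8 CPM in Lam-RNAi and 2076 and 2717 CPM in young midgut. The part of RNA of these other tissues in the falls was not tested.

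Falls in genes that were lower in young fat body than in young midgut included several with high levels in young midgut. Cyp28d1 had 188 and 160.2 CPM in old, 271 and 305 CPM in Lam-RNAi and 929.8 and 930.0 CPM in young midgut. The young level was above both other groups without overlap, at log2 fold changes of -2.48 (SE 0.10, adjusted p = 6.07e-10) in old and -1.84 (SE 0.09, adjusted p = 7.91e-09) in Lam-RNAi flies. Cyp6a20 had 20.4 and 17.2 CPM in old, 24.2 and 22.2 CPM in Lam-RNAi and 88.3 and 98.0 CPM in young midgut (-2.37 and -2.15 on the log2 scale in old and Lam-RNAi flies). Cyp4d8 had 27.4 and 22.1 CPM in old, 49.7 and 54.3 CPM in Lam-RNAi and 155 and 145 CPM in young midgut (log2 fold change -2.67, SE 0.10, adjusted p = 5.26e-09 in old against young). The order was the same for these genes, with old midgut lowest and young midgut highest. Further log2 fold changes were -2.05 in old and -2.35 in Lam-RNAi midgut for Cyp6d2, -1.04 and -1.90 for Cyp6d4, and -1.22 and -0.93 for Cyp28a5. Cyp4d1 also fell in Lam-RNAi midgut (log2 fold change -2.06, SE 0.10, adjusted p = 9e-08).

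The rises in midgut were led by Cyp12c1 in both conditions. It had 157 and 154 CPM in old, 167 and 169 CPM in Lam-RNAi and 23.4 and 29.8 CPM in young midgut. The old and Lam-RNAi libraries lay far above the young ones, at log2 fold changes of 2.50 (SE 0.08, adjusted p = 1.57e-10) in old and 2.52 (SE 0.08, adjusted p = 1.32e-10) in Lam-RNAi flies. Cyp6a2, which fell in fat body, had 128 and 127 CPM in old, 137 and 137 CPM in Lam-RNAi and 44.0 and 54.5 CPM in young midgut (1.32 and 1.33 on the log2 scale in old and Lam-RNAi flies). Its host gene Epac averaged 45.4 CPM in old, 40.5 CPM in Lam-RNAi and 39.7 CPM in young midgut. Cyp49a1 rose by 1.15 in old and 1.75 in Lam-RNAi midgut. Cyp6t1 rose in old midgut by 1.06 (SE 0.08, adjusted p = 5.28e-07), Cyp4d14 by 0.87, Cyp4p2 by 0.84, Cyp4p1 by 0.76 and Cyp12b2 by 0.75.

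Cyp6g1 rose in Lam-RNAi midgut, with 655 and 519 CPM in old, 1163 and 1354 CPM in Lam-RNAi and 546 and 528 CPM in young midgut. The Lam-RNAi libraries stood about 2-fold above both young libraries (log2 fold change 1.08, SE 0.11, adjusted p = 8.87e-06), while old against young midgut did not pass the test (log2 fold change 0.06, SE 0.11, adjusted p = 0.66). Cyp6a9 (1.16, SE 0.10, adjusted p = 3.08e-06), Cyp4e1 (1.12), Cyp301a1, a gene of cuticle formation (0.97), and Cyp4e2 (0.94) also rose in Lam-RNAi midgut on the log2 scale. Cyp4e1 had 125 and 95.7 CPM in old, 181 and 191 CPM in Lam-RNAi and 78.7 and 75.8 CPM in young midgut. It shares 85 bases with LvpH on the opposite strand. LvpH averaged 7029 CPM in old, 12820 CPM in Lam-RNAi and 4460 CPM in young midgut. Its log2 fold changes there were 0.59 in old and 1.37 in Lam-RNAi flies. The part of LvpH reads in the midgut values of Cyp4e1 was not tested. Cyp28d2 rose by 0.51 in old and 0.59 in Lam-RNAi midgut. Of the toxin list, 3 of 11 genes rose and 4 fell in old midgut, with a median log2 difference of 0.06 against 0.01 over all genes, and 6 rose and 4 fell in Lam-RNAi midgut, with a median of 0.59 against -0.01. Of all genes 25.0% rose and 28.7% fell in old midgut, and 25.5% rose and 29.9% fell in Lam-RNAi midgut. Of the hormone and cuticle list, 2 of 6 rose and 3 fell in old midgut, and 3 rose and 3 fell in Lam-RNAi midgut. The list had medians of -0.17 for old and 0.09 for Lam-RNAi flies there. In old whole gut 1 of its 6 genes rose and 1 fell, beside 20.1% and 23.4% of all genes, with a median of -0.83.

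In whole gut, ageing lowered more P450 genes than it raised when libraries were scaled by the trimmed mean of M-values (TMM), and Cyp9b2 was the highest member per length in both groups. Of 71 tested members 15 rose and 31 fell in old against young whole gut, 64.8% called against 43.6% of all genes, 20.1% higher and 23.4% lower. With scaling to total counts the split was 26 higher and 17 lower, the median of all genes moving by 0.50, so the balance of rises and falls depends on the scaling. CPM values below are per total counts and stand higher in old whole gut, relative to young, than the fitted fold changes do by that shift. Cyp9b2 (chromosome 2R, 3017781 to 3019640, minus strand) had 3887 and 4049 CPM in old whole gut and 1042 and 1049 CPM in young whole gut. Both old libraries were far above the young ones, and the fitted log2 fold change was 1.43 (SE 0.05, adjusted p = 6.23e-11). In midgut, Cyp9b2 had 810.4 and 865 CPM in old and 863 and 776 CPM in young libraries and did not pass the test with age (log2 fold change -0.03, SE 0.11, adjusted p = 0.852). The 5 highest members held 69.6% ± 0.82 of the counts of all members in old and 56.7% ± 0.11 in young whole gut (SD, n = 2 each).

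Other rises were in genes at lower levels. Cyp4e3 had 46.8 and 47.6 CPM in old and 9.54 and 13.0 CPM in young whole gut (log2 fold change 1.58, SE 0.12, adjusted p = 2.51e-07), and Cyp6a8 had 28.0 and 29.7 CPM in old and 7.0 and 8.19 CPM in young whole gut (log2 fold change 1.43, SE 0.12, adjusted p = 6.23e-07). Cyp12c1 had 50.8 and 41.6 CPM in old and 15.1 and 16.1 CPM in young whole gut (log2 fold change 1.07, SE 0.11, adjusted p = 3.56e-06). The old libraries were above the young without overlap for all these genes. On the log2 scale Cyp305a1 rose by 1.19, Cyp301a1 by 0.74, Cyp309a1 by 0.86 and Cyp4p1 by 0.84.

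Falls in whole gut took in several genes of the toxin list. Cyp6g1 had 439 and 354 CPM in old and 746 and 753 CPM in young whole gut (log2 fold change -1.41, SE 0.08, adjusted p = 3e-08). Cyp6a2 had 84.0 and 80.8 CPM in old and 159 and 137 CPM in young whole gut (log2 fold change -1.34, SE 0.08, adjusted p = 1.08e-08). For both genes the old libraries lay below the young ones. Of the list, 1 of 11 genes rose and 6 fell, with a median log2 difference of -0.69 against 0.02 over all genes. Of all genes 20.1% rose and 23.4% fell in old whole gut. Cyp6a21 had 49.8 and 45.6 CPM in old and 157 and 171 CPM in young whole gut (log2 fold change -2.28, SE 0.07, adjusted p = 2.11e-11), and Cyp311a1 had 8.28 and 5.84 CPM in old and 30.0 and 32.7 CPM in young whole gut (log2 fold change -2.64, SE 0.15, adjusted p = 7.15e-09). Cyp4d1 (-2.02), Cyp4d8 (-1.90), Cyp4d2 (-1.84), Cyp4ad1 (-1.65), Cyp4e2 (-1.45) and Cyp12d1-p (-1.66) also fell on the log2 scale. The midgut marker sum was 37391 and 37312 CPM in old and 78911 and 75637 CPM in young whole gut, and its part in these falls was not tested.

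The same condition changed many members in opposite directions in different tissues, and the difference was tested directly with all 17 libraries in 1 fit. The age effect differed between fat body and midgut at 41 of 76 tested members, 25 of them more positive in fat body and 16 more positive in midgut, 53.9% called against 44.3% of all genes, 23.8% more positive and 20.4% more negative in fat body. The Lam-RNAi effect differed at 44, 24 more positive in fat body and 20 in midgut, 57.9% called against 46.7% of all genes, 24.1% more positive and 22.5% more negative in fat body, with a split of 20 and 25 under scaling to total counts. Among others, Cyp6w1, Cyp6a20, Cyp28d1 and Cyp4s3 rose in fat body and fell in midgut in both conditions. For Cyp6w1 the difference of the effects was 6.19 (SE 0.25, adjusted p = 1.44e-09) for age and 6.98 (SE 0.26, adjusted p = 6.16e-10) for Lam-RNAi, and for Cyp28d1 it was 3.40 (SE 0.17, adjusted p = 7.4e-09) for age and 3.55 (SE 0.18, adjusted p = 5.81e-09) for Lam-RNAi. Cyp6a2, Cyp4e1 and Cyp6t1 fell in fat body and rose in midgut in both conditions, with differences of -3.46 (SE 0.28, adjusted p = 7.65e-07) for age and -5.35 (SE 0.31, adjusted p = 3.27e-08) for Lam-RNAi for Cyp6a2. Cyp4p2 did so with age. The midgut values of Cyp4e1 are uncertain, because it overlaps LvpH as given above. Of the members called with age in both tissues, 13 of 25 went in opposite directions, which is 52% against 53.1% of all genes called in both. For Lam-RNAi it was 15 of 25, 60% against 64.0% of all genes, so in this respect the members were close to the background.

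**Figure D4:**
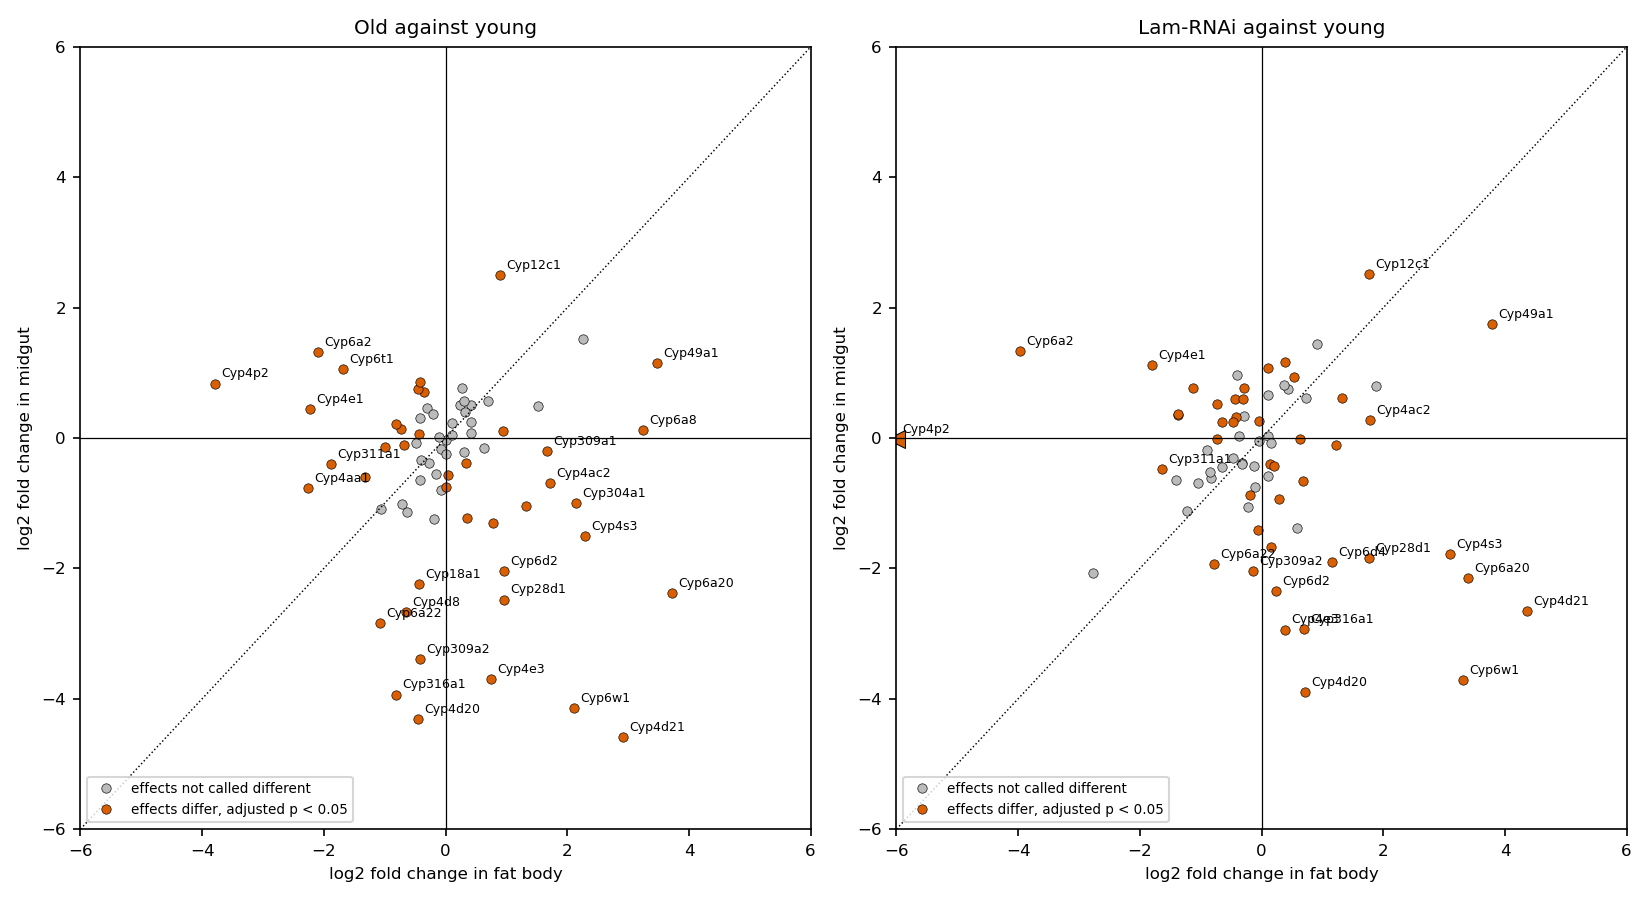
Log2 fold change in fat body (horizontal) and midgut (vertical) of the 72 members tested in both, for old against young flies (left) and Lam-RNAi against young flies (right), with members whose effects differed between the tissues in orange. Cyp6w1, Cyp6a20 and Cyp28d1 lie at the lower right of both panels and Cyp6a2 at the upper left, and the triangle marks Cyp4p2, whose fitted value in Lam-RNAi fat body lies beyond the axis and has no fixed size because its level there was 1 read.

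Age effects also differed between midgut and whole gut, which were taken at 50 and 40 days. They differed at 41 of 76 members, 21 more positive in midgut and 20 in whole gut, 53.9% called against 30.0% of all genes, 12.5% more positive and 17.6% more negative in midgut. Under scaling to total counts the split was 11 and 28. Cyp4e3 (-5.28, SE 0.69, adjusted p = 0.000159), Cyp6w1 (-4.99), Cyp4d20 (-4.46) and Cyp309a2 (-3.37) had strongly negative midgut minus whole gut differences. Cyp6a2 (2.65, SE 0.29, adjusted p = 2.55e-05), Cyp6a21 (2.41, SE 0.25, adjusted p = 1.23e-05), Cyp4d14 (2.28) and Cyp311a1 (2.23) had positive ones. In the comparisons of either condition with young flies of the same tissue, 74 of 75 tested members were called in at least 1 of 5, which is 98.7% against 81.2% of all genes. Of the 71 members tested in all 5, 10 were called in all 5, which is 14.1% against 6.2% of all genes. Of those 10, only Cyp12c1 rose in all 5, and only Cyp6a22 and Cyp311a1 fell in all 5. The comparisons within fat body share their young libraries, as do those within midgut, so the 5 are not independent.

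Neighbouring P450 genes moved in the same direction in some pairs and in opposite directions in others. With a gap of at most 5000 bases between members, 41 of the 80 placed members lay in 14 runs, the longest being the 8 genes Cyp6a22 to Cyp6a8 on chromosome 2R (10759177 to 10776514, in the coordinates of the deposited files, whose build is not stated). In old fat body 2 of those 8 rose and 3 fell, in old midgut 2 rose and 3 fell, and in old whole gut 1 rose and 4 fell. Of all genes 19.1% rose and 19.0% fell in old fat body, 25.0% and 28.7% in old midgut, and 20.1% and 23.4% in old whole gut. Pairs of neighbours were not counted over all genes, so the pair counts that follow have no background and show no trait of P450 runs. Of the 27 pairs of direct neighbours, both members were called in old fat body in 5, of which 1 moved in the same direction and 4 in opposite directions. In Lam-RNAi fat body both were called in 3 pairs, 1 in the same and 2 in opposite directions. In old midgut both were called in 13 pairs, 8 in the same and 5 in opposite directions. The Lam-RNAi midgut had 14 such pairs, 8 in the same and 6 in opposite directions. In old whole gut both were called in 10 pairs, 7 in the same and 3 in opposite directions. Between young fat body and young midgut it was 19 pairs, 13 in the same and 6 in opposite directions. In the run Cyp4ac1 to Cyp4ac3, which lies within tkv on chromosome 2L, Cyp4ac2 rose and Cyp4ac3 fell in both old (1.72 and -1.0) and Lam-RNAi fat body (1.79 and -1.13). In the run Cyp4ad1 to Cyp4e1, Cyp4e2 rose and Cyp4e1 fell in old (0.42 and -2.23) and Lam-RNAi fat body (0.54 and -1.80), though the Cyp4e2 calls were lost when either young library was left out. Overlapping reads of close copies could be shared between neighbours, and no member of these last pairs overlaps the next one.

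**Figure D5:**
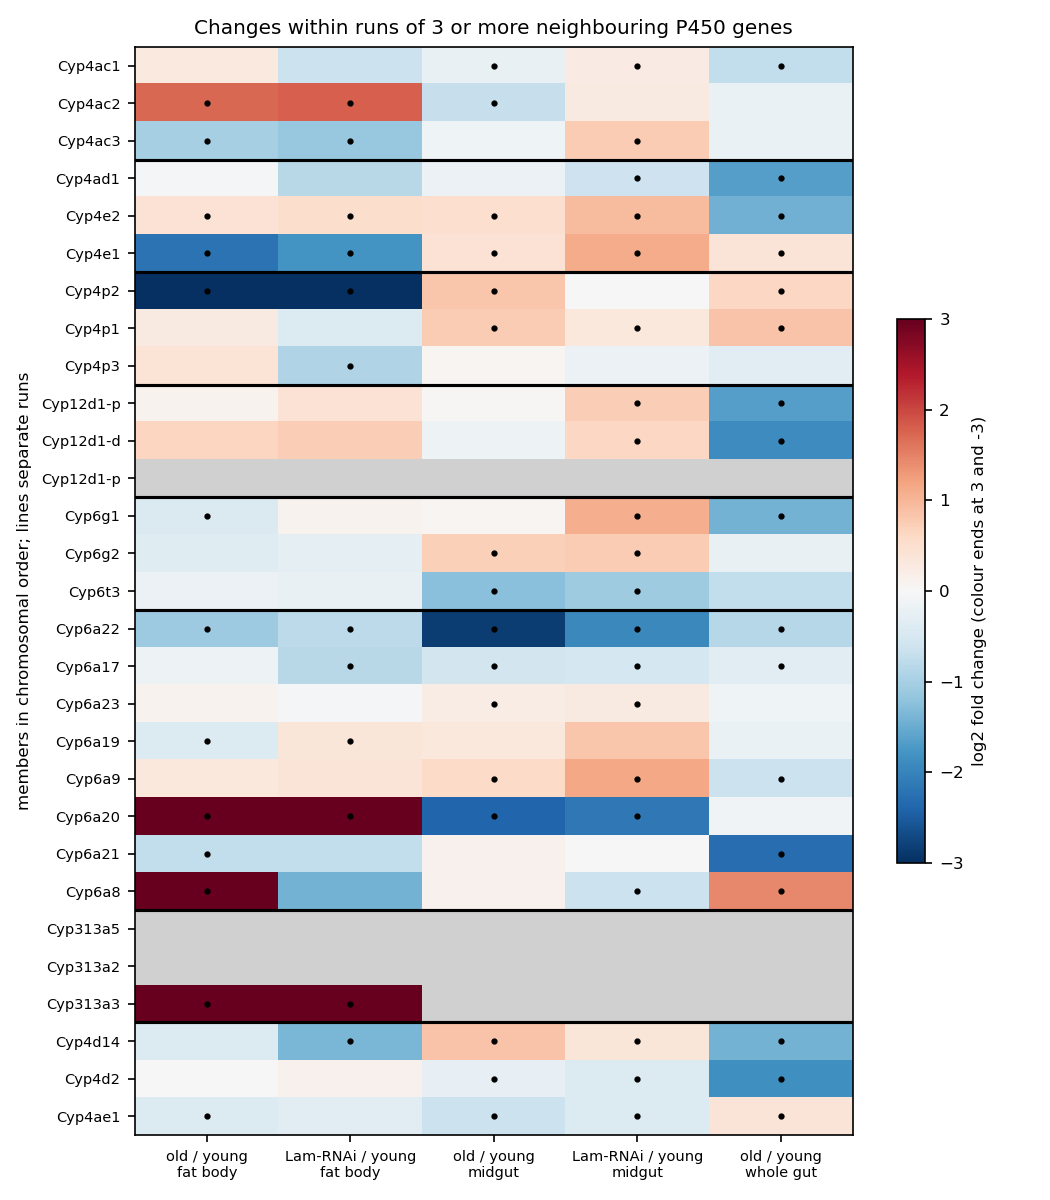
Log2 fold change of the members in runs of 3 or more neighbouring P450 genes, in chromosomal order with lines between runs, for the 5 comparisons with young flies of the same tissue. A dot marks an adjusted p below 0.05 and grey a member that was not tested. Rises and falls stand side by side within the runs, as for Cyp6a20 and its neighbour Cyp6a21 in old fat body.

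Of 5 genes listed as redox partners of the P450 enzymes, Cpr and Cyt-b5 fell in fat body in both conditions. Cpr, the reductase of the microsomal enzymes, had 1721, 2208 and 1918 CPM in old, 1932 and 2111 CPM in Lam-RNAi and 6617 and 6589.5 CPM in young fat body. Both conditions were below the young libraries without overlap, at log2 fold changes of -1.84 (SE 0.13, adjusted p = 0.000183) in old and -1.53 (SE 0.15, adjusted p = 0.000613) in Lam-RNAi flies. Cyt-b5, a second electron donor, had 718, 703 and 684 CPM in old, 548 and 573 CPM in Lam-RNAi and 1134 and 1103 CPM in young fat body (-0.76 and -0.82 on the log2 scale in old and Lam-RNAi flies). Cyp4g1 and the oenocyte marker sum that it makes up most of were lower in the same libraries, and their part in the fall of Cpr was not tested. In all, 2 of the 5 fell in old and 3 in Lam-RNAi fat body, and the rest did not pass the test. Among those not called in old fat body was the ferredoxin gene Fdxh (log2 fold change 0.42, SE 0.18, adjusted p = 0.105). Of all genes, 19.0% fell in old and 17.1% in Lam-RNAi fat body. In midgut 2 fell in old and 3 in Lam-RNAi flies, led by Cyt-b5-r (log2 fold changes of -1.77 and -0.82 for these conditions). The place of Cyt-b5-r among P450 partners rests on the list alone. Of all genes 28.7% fell in old and 29.9% in Lam-RNAi midgut. The muscle marker sum given for midgut was lower in the same libraries, and its part in these falls was not tested. The call in old whole gut was 1 fall, where 23.4% of all genes fell. The median log2 difference of the list was -0.51 in old and -0.60 in Lam-RNAi fat body, 0.00 and -0.28 for the same conditions of midgut, and 0.05 for old whole gut, beside medians over all genes of at most 0.02 in size.

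Of 7 genes of heme synthesis and breakdown, 1 rose and 2 fell in old fat body, with a median log2 difference of 0.08, and 2 rose and 3 fell in Lam-RNAi fat body, with a median of -0.74. Of all genes 19.1% rose and 19.0% fell in old fat body, and 18.5% rose and 17.1% fell in Lam-RNAi fat body. Ferrochelatase, which puts iron into heme, had 242, 178 and 197 CPM in old, 58.0 and 61.9 CPM in Lam-RNAi and 182 and 186 CPM in young fat body. It was lower in Lam-RNAi than in both other groups (log2 fold change -1.44, SE 0.14, adjusted p = 0.000521 against young), and old and young libraries overlapped. In midgut 6 of the 7 fell in old flies, where 28.7% of all genes fell, with a median of -0.24, and 4 fell in Lam-RNAi flies, where 29.9% of all genes fell, with a median of -0.20, while in old whole gut 1 rose, with a median of 0.11. The rest did not pass the test in these comparisons. In old whole gut 20.1% of all genes rose.

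Of 13 transcription regulators of P450 genes, 1 rose and 7 fell in old fat body, where 19.1% of all genes rose and 19.0% fell, with a median log2 difference of -0.25, and 1 rose and 4 fell in Lam-RNAi fat body, with a median of -0.05. In Lam-RNAi fat body 18.5% of all genes rose and 17.1% fell. Hr96, a nuclear receptor of the response to foreign compounds, had 32.2, 28.7 and 30.4 CPM in old, 22.8 and 23.7 CPM in Lam-RNAi and 43.5 and 41.9 CPM in young fat body, with young libraries highest and no overlap (-0.57 and -0.70 on the log2 scale in old and Lam-RNAi flies). Of the 12 tested in midgut, 1 rose and 2 fell in old flies and 5 rose and 2 fell in Lam-RNAi flies, with medians of 0.01 and 0.06. Of all genes 25.0% rose and 28.7% fell in old midgut, and 25.5% rose and 29.9% fell in Lam-RNAi midgut. Keap1, the repressor of the detoxification factor encoded by cnc, rose by 0.37 in old fat body, had a log2 fold change of -0.30 (SE 0.09, adjusted p = 0.0367) in Lam-RNAi fat body, and fell in all gut comparisons, with log2 fold changes of -0.76 for old midgut, -1.19 for Lam-RNAi midgut and -0.97 for old whole gut, where 1 of 12 regulators rose and 7 fell, beside 20.1% and 23.4% of all genes, with a median of -0.40.

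Of the 8 Halloween genes of ecdysone synthesis, 2 rose and 2 fell in old fat body and 3 rose and 2 fell in Lam-RNAi fat body, where 18.5% of all genes rose and 17.1% fell, with medians of 0.63 and 1.06. In old fat body 19.1% of all genes rose and 19.0% fell. The gene shd, whose enzyme activates ecdysone in peripheral tissues, had 2.92, 2.17 and 3.31 CPM in old, 2.27 and 2.53 CPM in Lam-RNAi and 10.6 and 10.3 CPM in young fat body. In midgut it had 28.7 and 29.0 CPM in old, 16.9 and 13.0 CPM in Lam-RNAi and 5.88 and 6.79 CPM in young libraries. It was thus lower than in young flies in fat body (-1.98 in old and -1.94 in Lam-RNAi flies) and higher in midgut (2.13 and 1.09), and in old whole gut it rose by 1.56. In midgut and whole gut shd was the 1 gene called of the 4 tested in each comparison with young flies, with medians of 0.51 for old midgut, 0.06 for Lam-RNAi midgut and 0.04 for old whole gut. Of all genes 53.7% were called in old midgut, 55.4% in Lam-RNAi midgut and 43.6% in old whole gut.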

How the data were processed

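Poly-A RNA of 17 libraries was measured by sequencing. The deposited values are raw read counts per annotated locus, in 1 table per library, as the whole numbers in the files show. The submitters' processing notes name CASAVA 1.8, TopHat2 and edgeR. The counting program, its strand setting, its treatment of reads with several matches and the genome build are not given in the sources used here. Library totals of 31637135 to 78289614 counts set the precision, and the limit that a count of 0 allows is 3 counts. Rows with identical position and counts were merged.

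The main test was edgeR's robust quasi-likelihood F test (version 4.0.16, run under R 4.3.3) after filterByExpr and TMM scaling, with 1 fit per tissue for contrasts within it and 1 fit of all 17 libraries for contrasts across tissues. P-values were adjusted by Benjamini-Hochberg over all genes of a fit, with a threshold of 0.05, and an SE is the log2 fold change divided by the root of F. DESeq2 1.42.0, other scalings, filters and designs, a replicate block and the removal of each library were the alternatives. The code was tested on simulated data. CPM are counts scaled to library totals, without TMM. RPKM used coding lengths from the Ensembl annotation of a later release, found for all 81 members by symbol and used as lengths only. Tables and plots used Python 3.11.15, pandas 2.3.3, numpy 2.4.6 and matplotlib 3.10.9. The labels do not say whether libraries of a group came from separate flies, so the p-values cover no more than the variation among these libraries, which may be technical.

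Members and gene lists were chosen with earlier results of these data known. The genes named are the 8 largest rises and falls per comparison among called members with a mean of at least 5 CPM in 1 group, the 10 highest members per length in each young tissue, and all members of the toxin and hormone lists. Of other lists, up to 3 genes with the smallest p in a comparison are named. Cyp4g1 was left out of the family by the rule and is given beside marker sums. The fits that leave out old fat body libraries 1 and 3 and the crossed block in midgut were added after seeing the data. Sequences were not used here.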

Additional observations from a re-analysis of the deposited data

Results flagged for a closer look

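Members are given here where the effect of 1 condition differed between tissues in the fit of all 17 libraries (adjusted p below 0.05, edgeR), each with the difference of the log2 fold changes. No explanation was weighed.

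The age effect was more positive in fat body than in midgut for Cyp28d1 (3.40), Cyp4e3 (4.40), Cyp6w1 (6.19), Cyp6a20 (6.04), Cyp6a8 (3.09), Cyp4d20 (3.82), Cyp304a1 (3.09) and Cyp4s3 (3.78). It was more negative in fat body for Cyp6a2 (-3.46), Cyp4e1 (-2.71), Cyp4p2 (-4.67), Cyp4aa1 (-1.54), Cyp12c1 (-1.65), Cyp4d14 (-1.33), Cyp311a1 (-1.52) and Cyp6t1 (-2.79).

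The Lam-RNAi effect was more positive in fat body than in midgut for Cyp28d1 (3.55), Cyp4d21 (6.98), Cyp4e3 (3.27), Cyp6w1 (6.98), Cyp6a20 (5.50), Cyp4d20 (4.57), Cyp6d4 (3.01) and Cyp4s3 (4.86). It was more negative in fat body for Cyp4ac3 (-1.95), Cyp6a2 (-5.35), Cyp4e1 (-2.96), Cyp12b2 (-1.31), Cyp4d14 (-1.78), Cyp311a1 (-1.20) and Cyp6t1 (-1.80). It was also more negative for Cyp4p2, with an adjusted p of 6.9e-11 and no fold change of fixed size, since Lam-RNAi fat body held 1 read of it. Cyp4d21 was near the detection limit in old and Lam-RNAi midgut, so the size of its difference is uncertain. Cyp4e1 overlaps LvpH in part, which was far above it in midgut, so its differences for age and Lam-RNAi are uncertain too.

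The age effect was more positive in midgut than in whole gut for Cyp6a2 (2.65), Cyp4e2 (1.94), Cyp12d1-p (1.70), Cyp6a21 (2.41), Cyp6a18 (1.86), Cyp4d14 (2.28), Cyp311a1 (2.23) and Cyp6t1 (1.65). It was more negative in midgut for Cyp309a2 (-3.37), Cyp28d1 (-2.57), Cyp4e3 (-5.28), Cyp6w1 (-4.99), Cyp6a22 (-2.0), Cyp6a20 (-2.29), Cyp6d2 (-2.51) and Cyp4d20 (-4.46). The call of Cyp6a20 between midgut and whole gut was lost when any 1 midgut or whole gut library was left out. Fat body marker sums were 1321 and 1426 CPM in old and 5785 and 7167 CPM in young midgut, and 3252 and 3526 CPM in old and 5388 and 5091 CPM in young whole gut, and their part in these differences was not tested.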

How the results depend on the processing

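The counts of members called were within 1.5 times their size in every comparison under DESeq2 size factors, total counts alone, no filter on low counts, a filter of at least 1 CPM in 2 samples, DESeq2 and another choice of samples in the fit. Requiring a fold change of at least 2 as well left 20 members for old against young fat body, 11 for old against Lam-RNAi fat body, 25 in old midgut, 25 in Lam-RNAi midgut and 22 in old whole gut, because that threshold removes the smaller changes by its construction. With the replicate number as a block, 21 members were called between old and young fat body and 2 between old and Lam-RNAi fat body, and every other count stayed within 1.5 times. The numbers did not pair the samples: same-numbered libraries deviated with correlations between -0.12 and 0.01. Crossing the numbers of Lam-RNAi midgut gave 57 members in old and 58 in Lam-RNAi midgut. With old fat body library 2 as the single old sample, which is then assumed to vary like the other groups, 47 members were called against Lam-RNAi fat body and 46 against young fat body. Leaving out each library in turn gave 21 to 47 members for old and 19 to 21 for Lam-RNAi against young fat body, 4 to 37 between old and Lam-RNAi fat body, 49 to 51 in old midgut, 53 to 58 in Lam-RNAi midgut, 38 to 52 in old whole gut and 53 to 55 between young fat body and young midgut. It gave 39 to 48 for the age effect and 35 to 42 for the Lam-RNAi effect between fat body and midgut, and 31 to 37 for the age effect between midgut and whole gut. Among the alternatives of single named members, 4822 kept their side of the threshold, 316 lost the call and 78 gained one. Another 9 changed sign with a call in the main or the alternative fit. Sign changes without a call in either fit were counted among the 4822. Under total counts alone Cyp6a23 (0.38) and Cyp9f2 (0.27) in old whole gut, Cyp4d2 (0.044) between young fat body and young midgut, and Cyp6a23 (-0.084) for age between midgut and whole gut changed sign on the log2 scale. With old library 2 alone Cyp12d1-p (-0.98) changed sign against young fat body, and Cyp4e3 (-0.97), Cyp28a5 (-0.47), Cyp6d2 (-0.28) and Cyp6d4 (-0.48) against Lam-RNAi fat body. The cause was not tested.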
